A study of Mus musculus with 2 samples.

Results

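The mouse genes numbered from Zfp900 to Zfp999 were followed in the RNA-seq of folate-deficient mouse embryonic stem cells (mESCs). They were taken from the deposited expression table by symbol alone (Zfp, then 9, then 2 further digits), and 64 of the 28839 genes listed matched. Sv129 mESCs, 1 mouse embryonic stem cell line, had been split at random between medium with 4 mg/L folate (FA4) and the same medium with 0 mg/L folate (FA0), and 1 library of total RNA was sequenced from each. Both media held fetal bovine serum and leukemia inhibitory factor, and the sources used here do not give the time in each medium. Levels were deposited as FPKM, fragments per kilobase of exon scaled to the size of the library, and 63 of the 64 genes are annotated as protein coding, with Zfp939 a transcribed pseudogene.

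Most of these genes encode KRAB zinc finger proteins. Such a protein carries tandem zinc fingers, which read DNA, and a KRAB box, which binds the corepressor Trim28. Trim28 brings in the histone methyltransferase Setdb1, heterochromatin protein 1 and deacetylases, and in embryonic stem cells this machinery is known for silencing endogenous retroviruses and for keeping imprints. The family grows by local duplication, so close relatives lie side by side in clusters and can be near-identical in sequence. In the annotated coding sequences of the 64 genes a KRAB box was found by pattern in 61, and 61 had at least 1 zinc finger, from 2 to 21 with a median of 11. The KRAB box began with phenylalanine (F) in 41 genes and with tyrosine (Y) in 20.

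The genes lay on 12 chromosomes, 43 of them in clusters of at least 3 with starts no more than 1 Mb apart. There were 16 on chromosome 4, 10 on chromosome 2, 10 on chromosome 17, 4 on chromosome 7 and 3 on chromosome 8. FPKM reached 1 in at least 1 library for 56 genes, which are called expressed here, and the other 8 were Zfp957, Zfp964 and 6 neighbours on chromosome 2. It reached 1 in both libraries for 54 genes, while Zfp971 and Zfp974 reached it only in FA0. Of the 18 genes with a mean FPKM of at least 10, 13 were in the chromosome 4 cluster, which held 64.4% of the summed FPKM of all 64 genes in FA4 and 70% in FA0. The plot of levels shows the chromosome 4 genes in the upper range and above the line of equal FPKM.

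**Figure D1:**
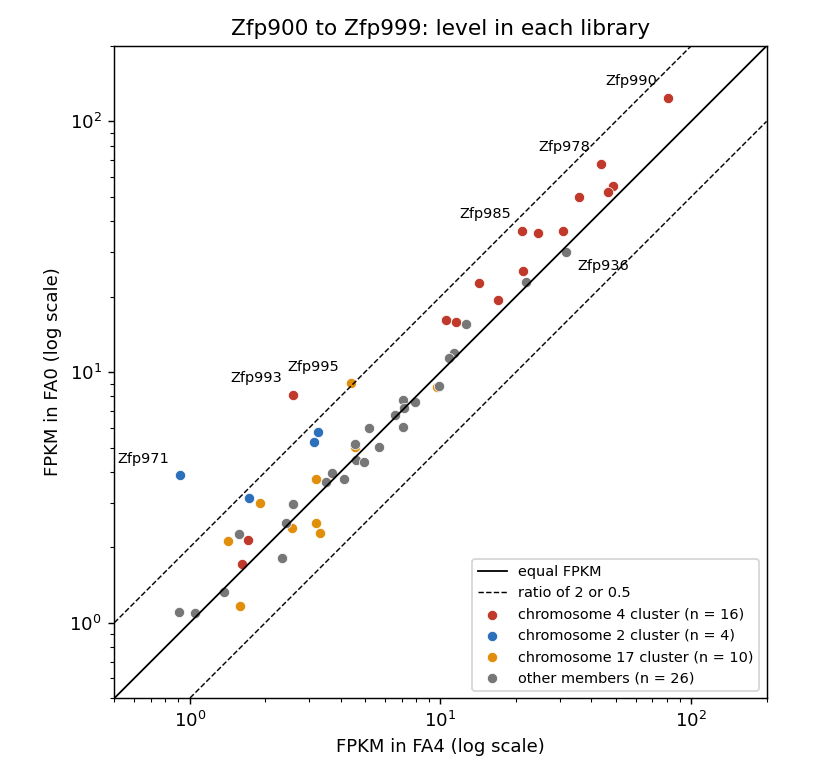
FPKM of the 56 expressed genes in FA4 (horizontal, log scale) and FA0 (vertical, log scale), 1 point per gene, coloured by cluster, with lines of equal FPKM and of a ratio of 2 or 0.5. The 16 chromosome 4 genes all lie above the line of equal FPKM, and Zfp971, Zfp993 and Zfp995 lie past the ratio of 2.

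The library of folate-deficient mESCs held more RNA of these genes in sum, and nearly all of the excess lay in the chromosome 4 and chromosome 2 clusters. The summed FPKM of the 64 genes was 642 in FA4 against 814 in FA0. In reads recovered from the FPKM, 39919 in FA4 against 46313 in FA0, the ratio scaled for depth was 1.23 (95% counting interval 1.22 to 1.25). For the 37 genes outside chromosomes 2 and 4 the summed FPKM was 218 in FA4 against 224 in FA0, and the ratio of reads was 1.03 (1.01 to 1.05). The other 332 Zfp genes of the table had 2985 in FA4 against 2873 in FA0 in summed FPKM, while their ratio of reads, 1.04 (1.03 to 1.05), lay on the other side of 1 and beside that of the 37. A sum of reads does not move when reads are assigned to the wrong one of several near-identical members. It can move when reads are exchanged with genes outside the 64. Of the transcript sequence of Zfp984, 54.5% also occurred in other genes, but only 7.27% in members. For Zfp980 these shares were 71.3% and 36.6%, while for Zfp988 they were 68.1% and 66.6%, so sharing was mostly with members there. The sums are thus not free of wrongly assigned reads. With 1 library per condition no difference here has a replicate check, so no p-value is given, and every interval is a Clopper-Pearson interval from recovered reads that covers counting error only. In bulk RNA, fewer cells that use a gene and less RNA per cell cannot be told apart.

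Change below is the log2 ratio of FA0 to FA4 after adding 1 to each FPKM, which understates differences of low genes, and a gene was called 2-fold apart at a change of at least 1 in size. By this limit 2 of the 56 expressed genes were higher in FA0, Zfp971 and Zfp993, or 3.57% beside 2.99% of all 14345 expressed genes, and none was lower, beside 1.32%. Zfp971 passed the limit for an expressed gene only through FA0, the library where it is higher. At a ratio of FPKM of at least 1.5, without the added 1, 12 genes or 21.4% were higher beside 15.4% of all genes, and none was lower by as much beside 7.35%. These 12 were 6 genes of the chromosome 4 cluster, 4 of the chromosome 2 cluster, and Zfp995 and Zfp947 of the chromosome 17 cluster. The counting interval of the ratio lay above 1 for 25 genes, 44.6% beside 34.4% of all genes, and below 1 for 5, 8.93% beside 25.8%. The share at the 2-fold limit was thus near the background, and at the 2 smaller limits the share was above it for higher genes and below it for lower genes.

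The median change of the 56 genes was 0.15, beside a median of 0.05 over all expressed genes and 0.09 over 276 other expressed Zfp genes. A change above 0 was found in 41 of the 56, or 73.2%, beside 55.7% of all expressed genes and 62.3% of the other Zfp genes. The background of a gene depends on its level. For the 11 genes of the family with a mean FPKM from 20 to 200 the median was 0.25, while 2937 genes of all kinds at that level had a median of -0.07. For the 27 with a mean FPKM under 5 the median was 0.08 beside 0.12, and for the 18 from 5 to 20 it was 0.09 beside 0.05. Among strongly expressed genes the 2 medians thus lay on opposite sides of 0. Of these 11 genes 9 were in the chromosome 4 cluster, so this contrast is not separate from that cluster.

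By chromosome, the median change was 0.45 over 16 genes on chromosome 4 and 0.60 over 5 expressed genes on chromosome 2, where all expressed genes of either chromosome had a median of 0.08. It was 0.08 over 13 genes on chromosome 17, 0.03 over 9 on chromosome 7, -0.02 over 4 on chromosome 8 and 0.04 over 3 on chromosome 13. The remaining 6 expressed genes, on chromosomes with 1 or 2 each, ran from -0.20 to 0.34. Neighbouring genes can share regulation and reads, so the genes of a cluster do not count as independent. Without the chromosome 4 cluster the median over the other 40 expressed genes was 0.05, and over the 43 that share at most 50% of their transcript sequence with other genes it was also 0.05, the same as over all expressed genes.

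**Figure D2:**
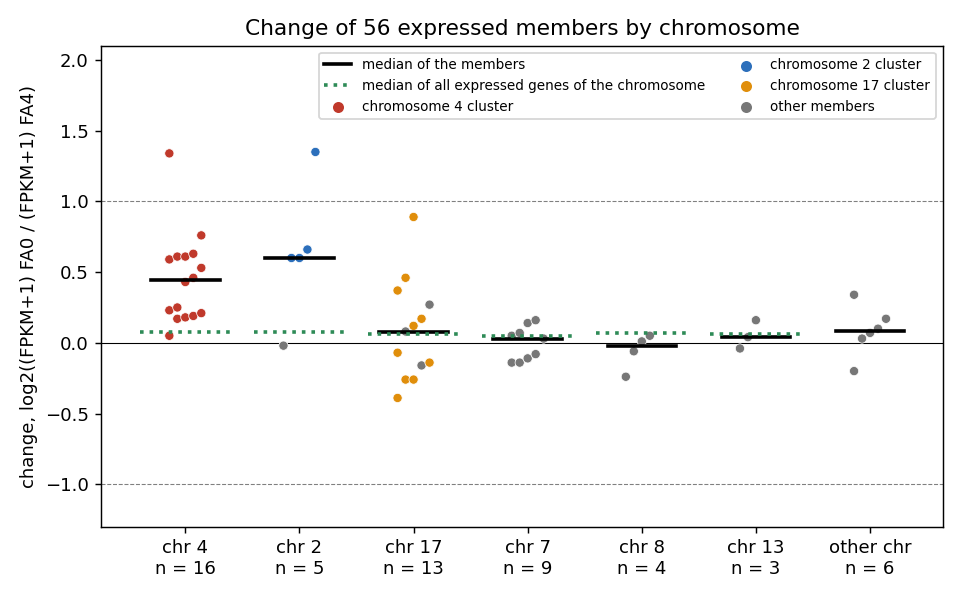
Change of each of the 56 expressed genes (vertical axis, log2 scale with 1 added to FPKM), grouped by chromosome and coloured by cluster, with the median of the genes (black bar) and of all expressed genes of that chromosome (dotted green bar). The chromosome 4 genes run from 0.05 to 1.34 and have no value below 0, while chromosome 17 has values on both sides, from -0.39 to 0.89.

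On chromosome 4 the 16 genes lay within 2.34 Mb, from 145510759 to 147848366 in mm10, 13 on the plus strand and 3 on the minus strand. All 16 were higher in FA0, beside 59.2% of all expressed genes of chromosome 4. The counting interval lay above 1 for 14, beside 34.4% of all expressed genes. The whole cluster had a summed FPKM of 413 in FA4 against 570 in FA0, and its reads, 24158 and 30733, gave a ratio of 1.35 (1.33 to 1.37). A KRAB box starting with F was found in 15 of them, and the proteins had 2 to 15 fingers.

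Zfp990 (145510759 to 145539188) was the most abundant gene of the family, at rank 460 of all genes by mean FPKM. It had an FPKM of 80.9 in FA4 against 124 in FA0, a ratio of 1.53 (95% counting interval 1.48 to 1.58) on 5324 and 7667 reads. Zfp978, next in level, had 43.9 in FA4 against 67.6 in FA0 and a ratio of 1.54 (1.42 to 1.67). The 2 genes differ in what is their own: 29.1% of the words of Zfp990 and 77.4% of those of Zfp978 also occurred in other genes.

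Zfp985 (147553277 to 147585198) had the largest ratio among the abundant genes of the cluster, 21.2 in FA4 against 36.7 in FA0, or 1.73 (1.61 to 1.87). Zfp980 had 14.3 in FA4 against 22.7 in FA0, a ratio of 1.58 (1.47 to 1.71). Zfp982, known for sustaining the undifferentiated state of mouse embryonic stem cells, had 10.5 in FA4 against 16.2 in FA0, a ratio of 1.55 (1.33 to 1.81). Of the 50-base words in transcripts, 11.9% of those of Zfp982 and 15.9% of those of Zfp985 also occurred in another gene, so their values rest mostly on sequence of their own.

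Zfp984 had 24.6 in FA4 against 35.9 in FA0, a ratio of 1.46 (1.36 to 1.57), and Zfp981 had 35.8 and 49.8, a ratio of 1.39 (1.31 to 1.47). With Zfp989 and Zfp993, 9 of the 16 genes had a ratio of at least 1.3. A second group of 6 had ratios between 1.1 and 1.3, among them some of the most abundant genes.

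In this second group Zfp979 had 48.8 in FA4 against 55.3 in FA0, a ratio of 1.13 (1.08 to 1.19). Zfp988 had 46.7 in FA4 against 52.5 in FA0, also 1.13 (1.07 to 1.19). Zfp992 had 30.9 and 36.6, a ratio of 1.18 (1.12 to 1.25), and Zfp987 had 21.3 and 25.4, a ratio of 1.19 (1.1 to 1.29). Their intervals do not reach those of Zfp990, Zfp978, Zfp985 or Zfp980, so the listed values did not differ by 1 common factor within counting error. The intervals do not cover wrongly assigned reads, and 89% of the words of Zfp987, 68.1% of Zfp988 and 71.3% of Zfp980 were shared. Zfp979 and Zfp992, with 27.1% and 43% shared, were apart from Zfp990 and Zfp985, with 29.1% and 15.9%. Zfp933, at the end of the cluster, had 1.61 in FA4 against 1.71 in FA0, a ratio of 1.06 (0.826 to 1.37) that could not be told from 1 at 129 reads in each library. It was also the 1 member of the cluster with a KRAB box starting with Y, and 1.83% of its words were shared.

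Zfp993 (146610961 to 146658160) had 2.59 in FA4 against 8.11 in FA0, a ratio of 3.14 (2.34 to 4.25) on 62 and 183 reads. This was the largest difference of the cluster, but 86.8% of the words of Zfp993 also occurred in other genes and 81.9% in Zfp991, an abundant neighbour, and the sources used here do not say how reads that match several genes were assigned. Over the cluster, 9 genes shared more than 50% of their words with other genes and 7 did not. The median change of the 9 was 0.43, with a range of 0.17 to 1.34, and that of the 7 was 0.46, with a range of 0.05 to 0.76. The 2 sets thus had like medians.

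**Figure D3:**
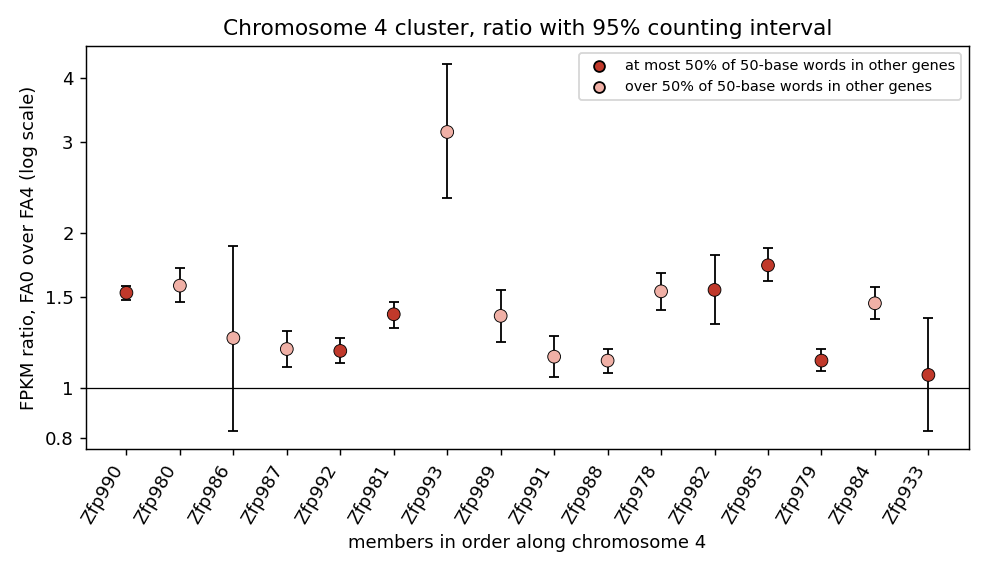
Ratio of FPKM in FA0 over FA4 (log scale) for the 16 chromosome 4 genes in order along the chromosome, with 95% counting intervals as bars. Dark points share at most 50% of their 50-base words with other genes and light points more. Every point lies above 1, the intervals of Zfp986 and Zfp933 reach below it, and Zfp993 stands apart at 3.14.

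Most of the promoters matched in this cluster were alike. None was matched for Zfp990 and Zfp978, the 2 most abundant genes, or for Zfp986, Zfp989, Zfp991 and Zfp992. RefSeq sequences (GRCm38) upstream of the start site were matched for 54 of the 64 genes and for 10 of the 16 on chromosome 4. Of these 10, 8 held the 15 letters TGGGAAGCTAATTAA. This was the longest word that at least 75% of them held in the 250 bases before the start. Searched on both strands and to 50 bases after the start, these letters occur in 12 of 32851 RefSeq promoters, or 0.0365%. All 12 are on chromosome 4, and the others are Gm13212, Rex2, Zfp534 and Zfp600 of the same region. The same 8 promoters held TATTGGGCG, which is in 0.119% of all promoters. The RefSeq start of Zfp981, 1 of the 8, lies 12893 bases from the listed start, and that of Zfp993, whose window has neither motif, 98112 bases. The 200 bases before the start are printed for Zfp985, Zfp980 and Zfp982, with ratios above 1.5, for Zfp979, with a ratio of 1.13, and for Zfp933, which lacks both motifs. Capitals mark TATTGGGCG, and the windows lie at chr4:147553077-147553276 (plus strand), chr4:145670497-145670696 (plus), chr4:147492217-147492416 (plus), chr4:147642509-147642708 (minus) and chr4:147848419-147848618 (minus) in that order.
Zfp985: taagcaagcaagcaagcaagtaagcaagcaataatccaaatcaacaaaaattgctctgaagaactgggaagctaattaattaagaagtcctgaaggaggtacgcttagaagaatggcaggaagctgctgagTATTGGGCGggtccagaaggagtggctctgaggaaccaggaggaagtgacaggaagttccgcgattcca
Zfp980: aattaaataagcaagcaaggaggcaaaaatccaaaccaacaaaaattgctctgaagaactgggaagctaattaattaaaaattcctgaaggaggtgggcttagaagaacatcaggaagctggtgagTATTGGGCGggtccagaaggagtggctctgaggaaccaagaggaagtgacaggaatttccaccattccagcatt
Zfp982: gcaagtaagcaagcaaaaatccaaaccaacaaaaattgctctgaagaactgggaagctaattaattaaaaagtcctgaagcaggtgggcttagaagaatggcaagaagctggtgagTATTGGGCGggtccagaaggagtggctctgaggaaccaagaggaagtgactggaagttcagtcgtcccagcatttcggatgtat
Zfp979: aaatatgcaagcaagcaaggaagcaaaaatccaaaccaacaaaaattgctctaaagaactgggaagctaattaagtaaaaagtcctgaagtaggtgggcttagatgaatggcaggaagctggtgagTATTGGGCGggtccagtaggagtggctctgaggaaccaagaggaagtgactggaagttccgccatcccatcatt
Zfp933: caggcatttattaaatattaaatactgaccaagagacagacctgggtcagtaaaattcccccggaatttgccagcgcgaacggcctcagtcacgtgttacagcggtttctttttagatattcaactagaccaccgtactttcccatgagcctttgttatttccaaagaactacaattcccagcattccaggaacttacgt

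The 4 promoters with the motifs are alike over most of their length, although the RNA of Zfp985 and Zfp979 differed in ratio. The 8 genes with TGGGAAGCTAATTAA had a median change of 0.49 and a range of 0.17 to 0.76. Of the chromosome 4 genes matched without it, Zfp933 had 0.05. The window matched to Zfp993, which had 1.34, lies within Zfp981 and 98112 bases from the listed start of Zfp993. Zfp993 can thus not be counted as a gene with or without the letters. The letters were taken from the chromosome 4 promoters, so they mark position and are not compared with genes of other chromosomes. The letters ATTGG inside TATTGGGCG are the reverse complement of CCAAT, a common promoter motif that is present on either strand in 33.8% of all promoters, in 8 of the 10 matched here and in 41 of all 54. The matched promoters of the cluster held few CpG, with a median of 3 in 250 bases beside 6 over all promoters.

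Genes of the region that do not belong to Zfp900 to Zfp999 were higher in FA0 as well. Of 45 expressed others between the first and the last member, 39 had a change above 0, or 86.7% beside 59.2% of all expressed genes of chromosome 4. Their median was 0.38, with a range of -1.03 to 1.99. Their reads summed to 10616 in FA4 against 13603 in FA0, a ratio of 1.36 (1.33 to 1.40). Among them were 5 protein-coding genes with changes of 0.38 to 0.55, of which Rex2, Zfp534, Zfp600 and Gm13212 hold the promoter motif above. Rex2 had 28.5 in FA4 against 37.5 in FA0, and Zfp534 had 34 in FA4 against 44.5 in FA0. The 29 expressed processed pseudogenes of the region, a class of gene copies set down by retrotransposition, had a median change of 0.41, and 24 were above 0. The counting interval lay above 1 for 12 of the 29, below 1 for 1 and held 1 for 16. Some of the 24, such as Gm13234 and Gm13239, reach an FPKM of 1 only in FA0. The limit for an expressed gene thus favours values above 0 in this count and in that of the 45 others. The 982 expressed processed pseudogenes of all chromosomes had a median of -0.05, with 45% above 0. Of these, Gm13234 had 0.356 in FA4 against 4.39 in FA0 on 5 and 58 reads, and Gm13148 had 3.35 and 12.4 on 47 and 164 reads (both chosen after their values were seen). Gm13239, Gm8178 and Gm13155 of the same class overlap Zfp980, Zfp978 and Zfp979 on the same strand, so their reads cannot be told from those of the members. Protein-coding neighbours share words with members too: 58.6% of those of Zfp980 occur in Rex2, 51.2% of Zfp978 in Zfp600 and 46.9% of Zfp984 in Gm13212. Members and neighbours are thus not fully separate in reads.

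The higher level extended past the first gene of the cluster but not past the last. In the 1 Mb before it 8 expressed genes had a median change of 0.70, and in the 1 Mb after it 20 had a median of 0.02. The members, the other genes between them and the genes before them thus had medians on the same side of 0.

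**Figure D4:**
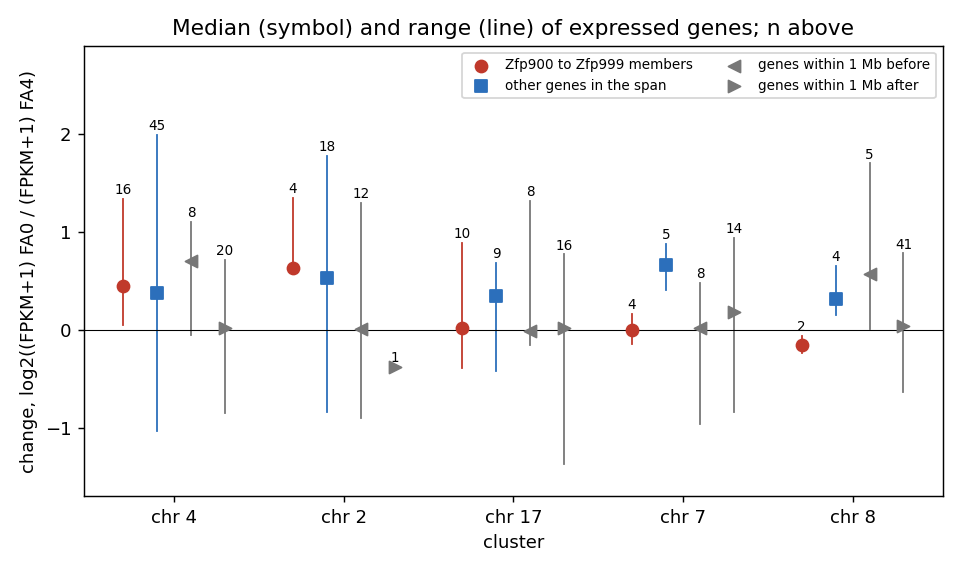
Median change (symbol) and range (line) of expressed genes for each of the 5 clusters: the Zfp900 to Zfp999 members, other genes between the first and last member, and genes within 1 Mb before and after, with the number of genes above each line (log2 scale, 1 added to FPKM). On chromosomes 4 and 2 members and other genes of the region have medians above 0, 0.45 and 0.38, and 0.63 and 0.53, while on chromosomes 17, 7 and 8 the medians of the other genes, 0.35, 0.66 and 0.31, lie above those of the members.

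On chromosome 2, 10 genes lay within 2.71 Mb, from 175372436 to 178078476, and they fell into a barely detected and an expressed part. All 10 had a KRAB box starting with Y. The barely detected part, nearest the first end, was Zfp968, Zfp965, Zfp969, Zfp966, Zfp967 and Zfp973, with 0 to 12 reads per library and FPKM of at most 0.386. Between 84.7% and 100% of their words were found in other genes, so a read could seldom be given to 1 of them with certainty. How reads that match several genes were counted is not known, so these low values do not show that the RNA was absent.

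Zfp968 was listed at 0 in FA4 and at 0.130 in FA0, on 0 and 7 reads, which puts the lower counting bound of the ratio at 1.53. Zfp973 was listed at 0.0196 in FA4 and at 0 in FA0, on 1 and 0 reads, which allows no fold. Zfp966 had 10 and 5 reads, a ratio of 0.531 (0.142 to 1.71). Zfp969, named after its values were seen, had 3 and 12 reads, a ratio of 4.25 (1.15 to 23.5), and 100% of its words occur in Zfp968. All 6 together had 18 reads in FA4 against 31 in FA0, a ratio of 1.83 with an interval of 0.992 to 3.47. The interval of the sum thus just reached 1, while those of Zfp968 and Zfp969 did not.

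The 4 expressed genes, all in the last part of the cluster, were each higher in FA0, although Zfp971 counts as expressed only through its FA0 value. Zfp971 (178023284 to 178034022) had an FPKM of 0.917 in FA4 against 3.87 in FA0, a ratio of 4.22 (95% counting interval 2.93 to 6.23) on 37 and 147 reads, the largest ratio among the 56 expressed genes. Zfp931 (178067695 to 178078476) had 1.73 in FA4 against 3.14 in FA0, a ratio of 1.81 (1.35 to 2.44). Zfp972 had 3.26 and 5.75, a ratio of 1.76 (1.24 to 2.53), and Zfp970 had 3.13 and 5.28, a ratio of 1.68 (1.34 to 2.12). The intervals of the last 3 overlap each other and not that of Zfp971. The whole cluster had 311 reads in FA4 against 597 in FA0, a ratio of 2.04 (1.77 to 2.35).

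Some of these values are uncertain for reasons of sequence. In Zfp971 51.1% of the words were shared, in Zfp972 56.5%, in Zfp970 49.7% and in Zfp931 23.3%. Zfp971 and Zfp972 are each overlapped by a gene on the opposite strand, and the sources used here do not say whether reads were counted by strand. Zfp931, which shares the least, had a ratio close to those of Zfp970 and Zfp972. Both genes called 2-fold apart, Zfp971 and Zfp993, shared more than 50% of their words, so none of the 43 expressed genes that share less was called.

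**Figure D5:**
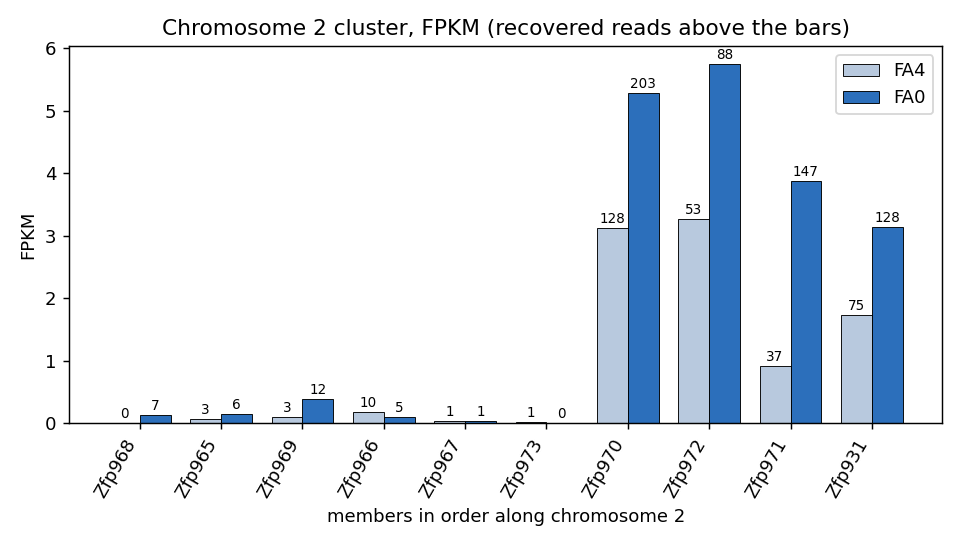
FPKM in FA4 (light bars) and FA0 (dark bars) of the 10 chromosome 2 genes in order along the chromosome, with the recovered reads above each bar. The 6 genes at the first end stay at or below 0.386, and in each of the 4 at the other end the FA0 bar is the higher.

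Here too the promoters were near copies. A run of 60 letters, the longest length tried, was identical in 7 of the 9 matched promoters of the cluster, on both strands in 0.0731% of all promoters and in 20 genes, all of chromosome 2. It is shown in capitals for Zfp971, which was expressed, and for Zfp968, which had 7 reads at most, beside Zfp931, which does not hold the run letter for letter. The windows of 200 bases before the RefSeq start lie at chr2:178023084-178023283 (plus strand), chr2:175372236-175372435 (plus) and chr2:178078426-178078625 (minus).
Zfp971: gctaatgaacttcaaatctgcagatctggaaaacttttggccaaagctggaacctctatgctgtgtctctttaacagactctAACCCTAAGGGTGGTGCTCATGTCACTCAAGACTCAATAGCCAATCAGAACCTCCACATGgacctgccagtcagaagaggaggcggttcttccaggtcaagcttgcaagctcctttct
Zfp968: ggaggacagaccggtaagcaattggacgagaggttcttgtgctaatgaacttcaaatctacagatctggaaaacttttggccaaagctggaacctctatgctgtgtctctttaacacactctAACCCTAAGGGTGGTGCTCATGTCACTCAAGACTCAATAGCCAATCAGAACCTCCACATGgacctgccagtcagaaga
Zfp931: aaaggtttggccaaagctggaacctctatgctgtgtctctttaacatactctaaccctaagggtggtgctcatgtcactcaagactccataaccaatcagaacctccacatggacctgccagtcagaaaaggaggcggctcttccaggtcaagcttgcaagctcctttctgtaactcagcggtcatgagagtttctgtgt

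The same run thus stood before genes listed below and above the limit for an expressed gene. It was present in the promoters of Zfp965, Zfp966, Zfp967, Zfp968 and Zfp973, listed below the limit, and of Zfp970 and Zfp971, listed above it. Shared sequence leaves the low values of the former uncertain. CCAAT was within 250 bases of the start in all 9 promoters, and the run itself contains it. The median number of CpG was 3, as on chromosome 4.

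The neighbours on chromosome 2 followed the expressed part. Of 18 expressed others between the first and last member, most of them unnamed Gm genes, 14 had a change above 0, or 77.8% beside 58.6% of all expressed genes of chromosome 2. Their median was 0.53, with a range of -0.84 to 1.78. Members share sequence with Gm genes of the chromosome, as 27.8% of the words of Zfp970 occur in Gm14288, so reads may not be separate. Gm14322, which carries the promoter run, had 2.71 in FA4 against 11.8 in FA0, a ratio of 4.33 (3.28 to 5.79). Gm2004, which also carries it, had 2.58 in FA4 against 0.999 in FA0, a ratio of 0.387 (0.248 to 0.591), so genes with the run differed in direction (both were chosen after their values were seen). The 12 expressed genes in the 1 Mb before the cluster had a median change of 0.01. Zfp937, the remaining chromosome 2 gene of the family and far from the cluster, had 1.37 in FA4 against 1.33 in FA0.

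The chromosome 17 cluster, 10 genes within 1.3 Mb from 21567046 to 22867134, had members on both sides of equal level. The median change was 0.02, with 5 of 10 above 0. The counting interval lay above 1 for 4 and below 1 for 3. Over all expressed genes it lay above 1 for 34.4% and below 1 for 25.8%, so these counts are near the background. No more than 20% of the words of any of these genes were shared, so the values of single genes are firmer here than on chromosomes 2 and 4. The 9 other expressed genes between the first and last member had a median change of 0.35, with 8 above 0, beside 57.1% of all expressed genes of chromosome 17. Their reads gave a ratio of 1.37 (1.31 to 1.45), like that of the other genes on chromosome 4. Among them Zfp229 had 16.2 in FA4 against 23 in FA0, a ratio of 1.42 (1.33 to 1.52), and was named after its values were seen.

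Zfp995 (21879570 to 21909926) had the largest ratio of the cluster, with 4.38 in FA4 against 9.01 in FA0, a ratio of 2.06 (95% counting interval 1.77 to 2.40) on 261 and 505 reads. With 1 added to the FPKM its change was 0.89, just under the limit for a call. Among genes that share at most 50% of their words, this was the largest change of the family. Zfp947, with a ratio of 1.58 (1.22 to 2.05), and Zfp994, with 1.5 (1.19 to 1.89), were also higher in FA0 and were named after their values were seen.

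Genes with lower RNA in FA0 were few, and the 3 with the most negative change were here. Zfp983 (21657582 to 21662540) had 3.31 in FA4 against 2.29 in FA0, 1.45-fold lower (1.19 to 1.76). Zfp942 had 3.18 and 2.49, a ratio of 0.782 (0.657 to 0.930). Zfp943 had 1.59 and 1.17, 1.36-fold lower (1.05 to 1.78). Zfp942 and Zfp943 are transcribed away from each other from starts 88 bases apart, so they share a promoter region, and both were lower. Zfp948, the most abundant gene of the cluster, had 9.67 in FA4 against 8.71 in FA0, a ratio of 0.901 (0.788 to 1.03), and Zfp946 had 2.56 and 2.39, a ratio of 0.930 (0.741 to 1.17), both within counting error of 1.

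The promoters of Zfp994 and Zfp947 held TATTGGGCG, the 9 letters shared by the chromosome 4 promoters, and no other gene of the family outside chromosome 4 with a promoter in the table did. The 10 genes of the family with these letters, 8 on chromosome 4 and these 2, had changes from 0.17 to 0.76, with a median of 0.46, while Zfp995, with the largest ratio of its cluster, lacks them. They are shown in capitals in the 200 bases before the starts of Zfp994 (chr17:22225615-22225814, minus strand) and Zfp947 (chr17:22165978-22166177, minus strand).
Zfp994: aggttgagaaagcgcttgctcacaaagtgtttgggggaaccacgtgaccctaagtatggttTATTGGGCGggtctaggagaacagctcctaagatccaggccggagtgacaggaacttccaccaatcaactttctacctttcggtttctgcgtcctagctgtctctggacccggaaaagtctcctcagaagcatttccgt
Zfp947: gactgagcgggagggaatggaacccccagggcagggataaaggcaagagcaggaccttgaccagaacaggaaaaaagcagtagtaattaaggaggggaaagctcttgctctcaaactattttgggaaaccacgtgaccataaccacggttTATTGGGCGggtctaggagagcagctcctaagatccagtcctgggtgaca

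A match of letters is a description of the window and does not show that a factor binds there. These 9 letters were chosen as the longest word held by at least 75% of the chromosome 4 promoters and by at least 2 promoters of the family elsewhere, so their link to the chromosome 4 values is not separate from the position of the genes. Outside chromosome 4 they mark only 2 genes of the family.

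The expressed genes of the other clusters were close to equal level. On chromosome 7, Zfp936 was the most abundant member outside chromosome 4, with 31.8 in FA4 against 30.1 in FA0, a ratio of 0.947 (0.887 to 1.01). Zfp975 had 9.86 and 8.83, 1.12-fold lower (1.01 to 1.24), and Zfp976 had 4.55 and 5.19, a ratio of 1.14 (0.999 to 1.31). Their 4 genes had 3501 reads in FA4 against 3189 in FA0, a ratio of 0.968 (0.922 to 1.02), while 5 other expressed genes between them had a median change of 0.66. On chromosome 8, Zfp930 had 7.93 in FA4 against 7.59 in FA0, a ratio of 0.957 (0.863 to 1.06), and Zfp963 had 2.34 and 1.82, a ratio of 0.778 (0.569 to 1.06), on 101 and 74 reads. Zfp964, below the limit for an expressed gene, had 0.476 and 0.290 on 68 and 39 reads, 1.64-fold lower (1.09 to 2.50), the 1 gene of that cluster with an interval below 1. The 4 other expressed genes of the chromosome 8 region had a median change of 0.31, all above 0.

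Of the genes that stand alone, Zfp956 on chromosome 6 had 7.11 in FA4 against 6.05 in FA0, 1.18-fold lower (1.01 to 1.37), and it is 1 of the 2 protein-coding genes in which no KRAB box was found by the pattern. Zfp941 and Zfp940 of chromosome 7 had 4.94 and 4.13 in FA4 and 4.38 and 3.74 in FA0, with ratios of 0.888 (0.770 to 1.02) and 0.905 (0.790 to 1.04). Zfp959 of chromosome 17 had 5.69 in FA4 against 5.01 in FA0, a ratio of 0.880 (0.732 to 1.06). Zfp957 of chromosome 14 was listed at 0 in FA4 and at 0.0176 in FA0, on 1 read. Zfp932, known in mouse embryonic stem cells for repressing endogenous retroviruses, had 6.58 in FA4 against 6.77 in FA0, a ratio of 1.03 (0.893 to 1.18), and was named for this role and not by its values.

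The type of KRAB box cannot be told apart from position in the chromosome 4 and chromosome 2 clusters. The box began with F in 15 of the 16 chromosome 4 genes and with Y in all 10 of the chromosome 2 cluster. Outside chromosomes 2 and 4, the 25 expressed genes whose box starts with F had a median change of 0.05, with 15 or 60% above 0. The 8 whose box starts with Y also had 0.05, with 5 or 62.5% above 0, beside 55.7% of all expressed genes. All 35 expressed genes outside chromosomes 2 and 4 had a median of 0.04, so a link of box type and change was not tested. Over all chromosomes the medians were 0.16 for 40 genes with F and 0.11 for 14 with Y.

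The corepressor that KRAB boxes bind was abundant in both libraries. Trim28 had 430 in FA4 against 408 in FA0, a ratio of 0.947 (0.933 to 0.962), and Setdb1 had 22.1 and 33.3, a ratio of 1.5 (1.43 to 1.58). Of 20 genes listed for the KRAB corepressor complex none was 2-fold apart, 11 had a change above 0 and the median was 0.03. Of all expressed genes, 2.99% were 2-fold higher and 1.32% were 2-fold lower, so none of 20 is near the background. The largest change was that of Uhrf1, which helps maintain DNA methylation, with 78.6 in FA4 against 137 in FA0, a ratio of 1.74 (1.69 to 1.80), ahead of Setdb1, Chd4 and Mta1.

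Among 15 genes for other histone H3 lysine 9 methylation and demethylation and the HUSH silencing complex, none was 2-fold apart and the median was 0.06. Ehmt2, a histone H3 lysine 9 methyltransferase, was the highest at 1.61 (1.51 to 1.72), and Suv39h1 the lowest at 0.723 (0.635 to 0.823). Of 13 KRAB zinc finger genes of known role outside Zfp900 to Zfp999, 9 were expressed, with a median of 0.14 and none 2-fold apart. With 2.99% of all expressed genes 2-fold higher and 1.32% lower, none is near the background for lists of 15 and 9 too. Zfp819 had 3.51 in FA4 against 7.65 in FA0, a ratio of 2.18 (1.80 to 2.64), and Zfp57, which keeps imprints, had 163 and 126, 1.29-fold lower (1.26 to 1.33). The medians of these lists were between 0.03 and 0.14, and Zfp600, on the last of them, is itself a gene of the chromosome 4 region.

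Markers of cell type gave the state of the cultures. All 9 embryonic stem cell markers were expressed, with a median change of -0.20, 7 below 0 and 2 above. Fgf4 had the largest change, 42.3 in FA4 against 56.2 in FA0, and Nanog had 548 in FA4 against 418 in FA0. The 12 pluripotency factors without a KRAB box, all zinc finger proteins but Tfcp2l1, had a median of -0.04, led by Zfp42 (824 in FA4, 480 in FA0) and Tfcp2l1 (40.2 and 70.5). Of 17 genes of the two-cell-like state 13 were expressed, all lower in FA0, with a median of -1.38. By 2-fold 11 of these were lower, beside 1.32% of all expressed genes, and Zscan4d had 6.97 in FA4 against 0.845 in FA0. Of 8 primitive endoderm markers 4 were expressed, with a median of -0.26: Gata6 had 2.58 and 0.778, Dab2 1.46 and 1.06, and Gata4 1.51 and 1.1, all lower in FA0, and Lama1 12.1 and 24.6. Of 7 fibroblast markers, for feeder cells, 1 was expressed, Thy1, at 4.21 and 4.53, and Col1a1, Col1a2 and Col3a1 were at or below 0.301. The part that a shift between these states had in the zinc finger clusters was not tested. The table held 19529293 recovered reads over genes in FA4 against 18362376 in FA0.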

How the data were processed

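Total RNA of FA4 and FA0 mESCs was sequenced, 1 library each. The deposited values are FPKM, which the authors computed for each Ensembl gene after alignment to mm10. Named in the submitters' processing notes are DESeq 1.28.0, HISAT2 2.1.0 and StringTie 1.3.3b. The FPKM are scaled within each library only.

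Reads were recovered as FPKM times the merged exon length in GENCODE M21 (same build) over the scaling totals, 18806540 for FA4 and 17705094 for FA0, and 97.9% and 98.1% of values up to 20 reads fell within 0.05 of a whole number. Lengths were found for 28767 of 28839 genes. A pseudocount of 1 and a minimum FPKM of 1 in either library were used. Clopper-Pearson intervals (95%) of the read ratio were tested on simulated data. With 1 library per condition no count model was fitted. Shared sequence was the share of 50-base transcript words found in another gene. KRAB boxes and fingers were found by pattern in annotated coding sequence. Promoters came from RefSeq (GRCm38).

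The genes and lists were chosen with earlier results of these data known. Named members were the 10 highest by mean FPKM, up to 12 with the largest change in each direction, the highest and the extremes of each cluster, those listed at 0, up to 4 genes per list, and Trim28 and Setdb1; others are said to be chosen after their values were seen or appear in counts. Alternatives were pseudocounts of 0.1 and 0.5, no minimum or a minimum of 5, FA0 scaled to the median ratio, TPM, and leaving out genes with over 50% shared words or the chromosome 4 cluster. Python 3.11.15, pandas 2.3.3, numpy 2.4.6, scipy 1.17.1 and matplotlib 3.10.9 were used.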

Additional observations from a re-analysis of the deposited data

How the results depend on the processing

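No paired analysis was possible because each condition has 1 library. The median change, 0.15 over the 56 expressed genes, was 0.05 both without the genes that share over 50% of their words and without the chromosome 4 cluster, 0.25 under TPM, and between 0.11 and 0.18 under the other alternatives. The number of genes 2-fold higher, 2 as reported, was 1 with a minimum FPKM of 5 (33 genes) and 1 without the chromosome 4 cluster (40 genes). It was 0 without the genes that share over 50% of their words (43 genes). Of all genes, 2.23%, 2.99% and 2.98% were 2-fold higher under these 3 settings. The number was 3 with a pseudocount of 0.1 and 3 under TPM (56 genes), where 6.63% and 6.16% of all genes were 2-fold higher. With no minimum, so that the barely detected copies count, the median change was 0.18 on chromosome 2 and 0.26 in its cluster.

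Rescaling to TPM multiplied FA0 over FA4 by 1.06 and moved the median of all genes from 0.05 to 0.13. The ratio of summed FPKM then went from 1.27 to 1.34 over all 64 genes, from 1.38 to 1.46 on chromosome 4, from 1.12 to 1.18 on chromosome 17 and from 0.974 to 1.03, a change of direction, on chromosome 7, and 45 rather than 41 genes had a change above 0. All 16 chromosome 4 genes and the 4 expressed chromosome 2 genes stayed above 0. Without the genes with over 50% shared words the summed ratio was 1.22 over all and 1.73 on chromosome 2, and without the chromosome 4 cluster it was 1.07.

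Among the lists, TPM moved the median of the pluripotency factors without KRAB to 0.04, of stem cell markers to -0.12 and of two-cell-like genes to -2.16. For two-cell-like genes it was -2.60 and -1.95 with pseudocounts of 0.1 and 0.5 and -2.01 with a minimum of 5. The 1 primitive endoderm marker left at that minimum had 0.96. Depth limits the barely detected chromosome 2 genes, with at most 12 reads each, and Zfp957, with at most 1.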
